A study of Mus musculus with 4 samples.

Results

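Cycling T cells were defined by the raw counts of unique molecular identifiers (UMIs) in each cell. A cell had to pass the quality limits, which were between 300 and 5000 genes with a UMI and no more than 6% of UMIs from mitochondrial genes. It also needed at least 1 UMI of Cd3e, Cd3d or Cd3g, the signalling chains of the T cell receptor complex, at least 2 UMIs of Mki67 and Top2a together, and no UMI of Foxp3, Csf1r or Cd79a. The rule was met by 583 of 23011 cells within the quality limits (2.53%), and by 583 of the 6542 Foxp3-negative T cells (8.91%). The libraries held 144 such cells from untreated tumours, 90 after STING agonist, 182 after LTbR agonist and 167 after both agonists (combination). The cells were CD45-positive leukocytes sorted from tumours of KPC cells, a line from a mouse model of pancreatic cancer in which Pdx-Cre switches on mutant alleles, among them mutant P53, in the pancreas. The tumours grew under the skin of male C57BL/6 mice, and untreated mice were the controls. The STING agonist ADU-S100 (a synthetic cyclic dinucleotide ligand of STING, a sensor upstream of type I interferon) was injected into the tumour, and the LTbR agonist (the antibody 4H8, which activates the lymphotoxin-β receptor) into the peritoneum. Tumours of a group were pooled before the sort, and each group had 1 library. No animal can be told apart, no test between groups was possible, and the intervals below (95%, exact binomial for shares and exact Poisson for UMIs) cover counting error only.

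A T cell that meets its antigen may leave quiescence and divide repeatedly. D- and E-type cyclins release E2F factors, which switch on genes for origin licensing, nucleotide supply and DNA synthesis in late G1 and S phase. Genes for chromosome condensation, the spindle and cytokinesis follow in G2 and M phase, largely under the MuvB complex with B-Myb and FOXM1. Mki67 encodes the nuclear antigen Ki-67 and Top2a the topoisomerase that untangles replicated chromosomes. In tumours, dividing CD8 T cells are typically found among antigen-experienced cells.

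The members formed a graded range rather than a uniform population. Of the 583 cells, 225 had exactly 2 UMIs of Mki67 and Top2a, 135 had 3 to 4, 74 had 5 to 9 and 149 had 10 or more. Stmn1, which encodes the microtubule regulator stathmin, was found in 19.1% of the cells with 2 rule UMIs, in 34.8% at 3 to 4, in 86.5% at 5 to 9 and in 98.0% at 10 or more. Birc5, the chromosomal passenger protein survivin, was found in 2.67%, 10.4%, 40.5% and 84.6% of the same cells. Pclaf, a clamp-associated factor of DNA synthesis, was found in 4.89%, 18.5%, 58.1% and 94.6%. Just outside the rule, 836 T cells had 1 rule UMI, with Stmn1 in 10.9% and Birc5 in 0.718% of them. The label of cycling cells is therefore borne by its own markers in the 223 members with 5 or more rule UMIs, while most of the 360 members with 2 to 4 lacked Birc5 and Pclaf UMIs. Depth moved with this range, the median rising from 7874 UMIs a cell at 2 rule UMIs to 13957 at 10 or more, but Stmn1 also differed after scaling to counts per 1000000 UMIs (CPM), from 59.7 to 1250 CPM. All 583 cells are called cycling T cells below by the rule alone.

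**Figure D1:**
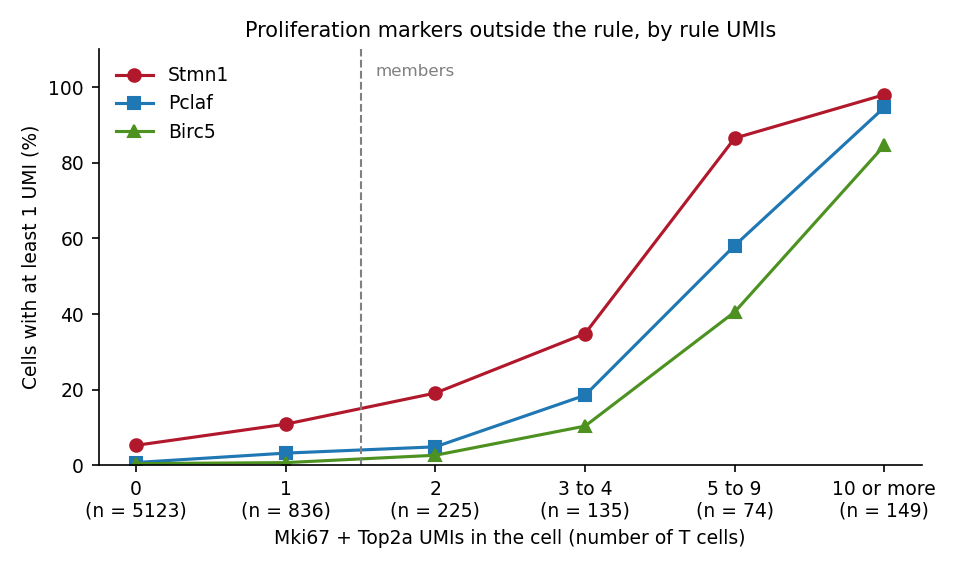
Share of Foxp3-negative T cells with at least 1 UMI of Stmn1, Pclaf or Birc5 (y axis, %) by the number of Mki67 and Top2a UMIs in the cell (x axis, all libraries together), with the dashed line at the threshold of the rule. The 3 markers stay under 35% up to 4 rule UMIs and reach 84.6% to 98.0% at 10 or more.

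The cells with 5 or more rule UMIs were 53 of 144 members in the untreated library (36.8%, interval 28.9 to 45.2%), 30 of 90 after STING agonist (33.3%, 23.7 to 44.1%), 75 of 182 after LTbR agonist (41.2%, 34.0 to 48.7%) and 65 of 167 after the combination (38.9%, 31.5 to 46.8%). Those with 10 or more were 20.8%, 21.1%, 30.2% and 26.9%. All these intervals overlapped.

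The members had a median of 9446 to 10456 UMIs by library, 1.93 to 2.17 times that of the non-cycling T cells. A further 59 cells met the rule but had over 5000 genes and were left out by the quality limits, 10.6% of the rule-meeting cells in the untreated library, 13.5% after STING agonist, 8.54% after LTbR agonist and 6.18% after the combination. UMIs of 2 or more markers of another cell class were found in 53 members, 15, 5, 18 and 15 by library in the same order. In the LTbR agonist library, 3 members held 698 of the 704 UMIs of the neutrophil genes S100a8 and S100a9, against 0 to 5 UMIs in the members of each other library. T cell receptor constant genes (Trac, Trbc1 or Trbc2) had a UMI in 93.4% to 97.8% of members. No member carried a UMI of the B cell gene Ms4a1, but the rule had already left out cells with Cd79a UMIs. UMIs of the immunoglobulin gene Ighm were found in 10.4%, 10.0%, 16.5% and 21.0% of members by library in the same order. Those of Igkc were found in 8.33%, 4.44%, 9.89% and 14.4%. In neutrophils, where dividing cells are rare, the cycle part of the rule was met by 1 of 174, 2 of 247, 2 of 321 and 0 of 51 cells at medians of 2188 to 2423 UMIs. The exact interval of the last share reaches up to 6.98%. Barcode sequences were shared with another library by 13 members.

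The frequency of cells that met the rule was compared between treatments. Cycling T cells made up 2.12% of filtered cells in the untreated library (interval 1.79 to 2.49%), 2.40% after STING agonist (1.94 to 2.94%), 2.55% after LTbR agonist (2.19 to 2.94%) and 3.13% after the combination (2.68 to 3.63%). The combination value was 1.48 times the untreated one (1.07 to 2.03), while the intervals of both single agonists included 1. As an alternative, cells that carried markers of another class were taken out of members and filtered cells alike, which also changed the base of the share. They were 10.4% of the untreated and 8.98% of the combination members. The combination ratio was then 1.23 (0.88 to 1.70). Among cells with 5 or more rule UMIs, without this removal, the combination ratio was 1.56 (0.92 to 2.65). T cells of the same gate were themselves 25.4%, 31.9%, 25.6% and 33.6% of filtered cells in the untreated, STING agonist, LTbR agonist and combination libraries. Within T cells, the cycling share was 8.37% (7.1 to 9.78%), 7.53% (6.09 to 9.17%), 9.94% (8.61 to 11.4%) and 9.31% (8.0 to 10.7%). Relative to the untreated share this was 0.90 times (0.62 to 1.29) for STING agonist, 1.19 times (0.88 to 1.61) for LTbR agonist and 1.11 times (0.82 to 1.51) for the combination, so that no difference in the cycling share of T cells was detectable at this number of cells. Fewer cells of a type and fewer UMIs per cell of the rule genes cannot be told apart in these shares.

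**Figure D2:**
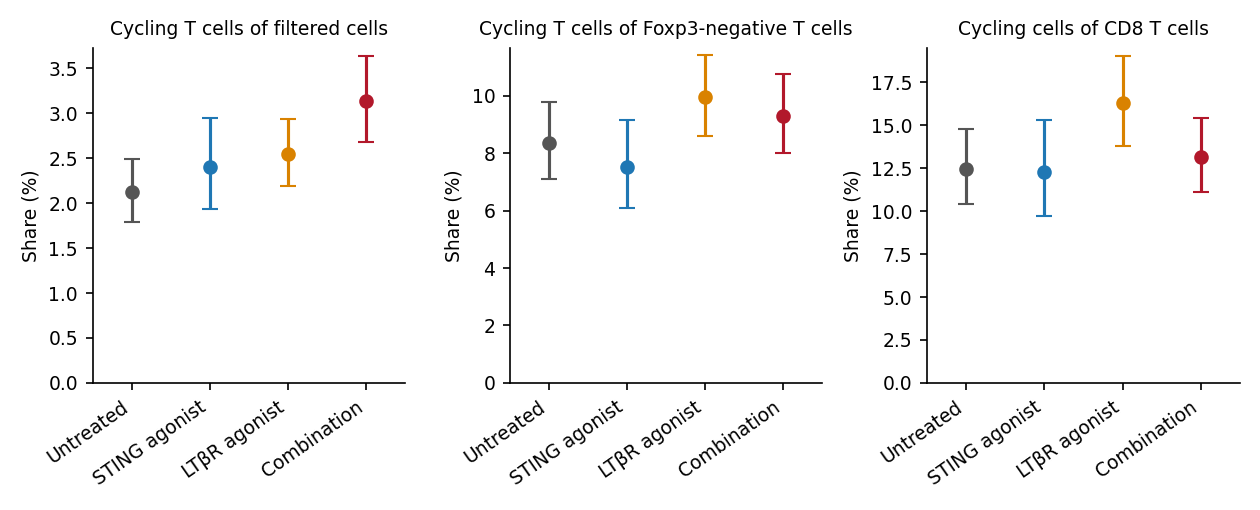
Cycling T cells as a share of filtered cells, of Foxp3-negative T cells, and within CD8 T cells (y axes, %) in the 4 libraries, with exact 95% binomial intervals that cover counting error only. Of filtered cells the points of LTbR agonist (2.55%) and the combination (3.13%) lie above the untreated interval, while within T cells the 4 intervals overlap.

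Most members were CD8 cells. Cells with Cd8a or Cd8b1 UMIs and no Cd4 UMI were 445 of 583 members (76.3%, interval 72.7 to 79.7%), against 47.6% of the non-cycling T cells. Cells with Cd4 UMIs alone were 67 members (11.5%), against 18.3% of the non-cycling cells. A further 18 members had both, 53 had neither, and γδ T cells (Trdc UMIs without Trbc1, Trbc2, Cd4 or Cd8 UMIs) were 0 of 583 members, against 2.35% of non-cycling T cells. A count of 0 allows a share of up to 0.515% by 3 counts of the total and up to 0.631% by the exact interval. Members were the deeper cells, so lineage was also read after every T cell had been thinned to 2000 UMIs, leaving out 9 members and 508 non-cycling cells. The CD8 share was then 72.5% (68.6 to 76.1%) of members and 46.5% (45.2 to 47.9%) of non-cycling cells, and it was the higher of the pair in each library.

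Within the CD8 T cells, 12.5% (10.4 to 14.8%) met the cycle rule in the untreated library, 12.3% (9.70 to 15.3%) after STING agonist, 16.3% (13.8 to 19.0%) after LTbR agonist and 13.1% (11.1 to 15.4%) after the combination. Within the CD4 T cells without Foxp3 UMIs the shares were 3.90% (9 of 231), 4.76% (12 of 252), 5.61% (21 of 374) and 8.33% (25 of 300), and the combination was 2.14 times untreated with an interval of 0.75 to 6.71. Of the T cells with Foxp3 UMIs, which the rule leaves out, 14 of 119, 7 of 85, 29 of 251 and 18 of 142 met the cycle thresholds. All ratios to untreated in these 3 lineages had intervals that included 1.

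T cell receptor β variable segments were counted in CD8 members and in the non-cycling CD8 cells of the same library, with no test of their overlap. These segments bear on the clonal make-up of the pooled tumours, since cells of a clone share them. A segment could be read in 105, 67, 111 and 115 CD8 members. In the untreated library Trbv3 was used by 27.6% of them (19.3 to 37.2%) and by 159 of 636 non-cycling CD8 cells, and Trbv29 by 21 of 105 members and 19.5% of the non-cycling cells. Trbv19 was used there by 11.4% of members and 4.56% of non-cycling cells, and Trbv15 by 10.5% and 4.72%. After STING agonist the leading segments were Trbv29 in 26.9% of members (16.8 to 39.1%) and 19.5% of non-cycling cells, and Trbv19 in 19.4% and 20.4%. Trbv3 was found in 0 of 67 members, which allows a share of up to 4.48% by 3 counts of the total, and in 34 of 452 non-cycling cells. After LTbR agonist no segment exceeded Trbv19 with 16.2% of members (9.90 to 24.4%), against 10.7% of non-cycling cells. After the combination Trbv13-1 was used by 24.3% of members (16.8 to 33.2%) and 22.3% of non-cycling cells. Trbv4 was used there by 19.1% of CD8 members (12.4 to 27.5%) and 7.97% of the non-cycling CD8 cells (6.12 to 10.2%), while in the untreated library it was used by 1.90% and 9.59%. The 5-prime chemistry reads these segments directly, but near-identical members of the Trbv13 family can share reads, and the segments named here were chosen after their values had been seen.

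The division programme of the CD8 members was set against the CD8 non-cycling cells of the same library. The rule itself separates these cells, so the values describe the members and test nothing. Over 10631 genes with at least 50 UMIs in members or non-cycling cells, 3.09% were at least 1.5 times higher in members in all 4 libraries and 0.141% at least 1.5 times lower, as ratios of (CPM + 10). Of the spindle and kinetochore list, 32 of 32 genes were higher in all 4 libraries, with a median log2 ratio of 2.15 against 0.01 over all genes. So were 13 of 15 genes of anaphase and cytokinesis, 23 of 25 of the chromatin list, 14 of 17 of origin licensing, 17 of 23 of DNA synthesis, 11 of 17 of cyclins and CDKs, 9 of 17 of nucleotide supply and 8 of 12 of the cycle transcription factors.

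Among the spindle genes, Tpx2, which builds microtubules around chromosomes, stood at 116, 119, 98.5 and 98.8 CPM in the CD8 members of the untreated, STING agonist, LTbR agonist and combination libraries. The non-cycling CD8 cells stood at 2.90, 2.97, 5.45 and 6.14 CPM. Ube2c, the ubiquitin-conjugating enzyme of the anaphase-promoting complex, stood at 145, 189, 152 and 166 CPM in members and at 2.70 to 7.19 CPM in non-cycling cells. The groups of members and of non-cycling cells did not overlap for either gene. The rule separates these cells by cycle genes, so this describes the split, and the share of all genes without overlap was not counted. Of the histone-associated genes, Hmgb2, a chromatin protein of dividing cells, was already abundant in non-cycling cells (246 to 319 CPM) and reached 883 to 1292 CPM in members. The D-type cyclin Ccnd2 behaved otherwise, with 101 to 168 CPM in members and 196 to 229 CPM in non-cycling cells. Of 15 genes for CDK inhibitors and other brakes, 4 were also higher in all 4 libraries, namely the INK4-locus gene Cdkn2a, the INK4 inhibitor Cdkn2c, the pocket protein gene Rbl1 and the CDK1-inhibiting kinase gene Pkmyt1.

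The lists are also given by rule UMIs, a split that itself uses late-cycle genes and so tests nothing. In the 271 CD8 members with 2 to 4 rule UMIs, pooled over libraries, the licensing list had a median log2 ratio to non-cycling CD8 cells of 0.52 and the spindle list of 0.37, against 0.01 over all genes. In the 174 CD8 members with 5 or more, these medians were 1.69 and 3.02. Mcm5, a subunit of the replicative helicase, stood at 21.2 CPM in non-cycling cells, 59.1 CPM at 2 to 4 rule UMIs and 151 CPM at 5 or more. Lig1, the ligase that joins Okazaki fragments, stood at 25.8, 62.5 and 179 CPM. Kif11, the motor that separates the spindle poles, stood at 5.28, 9.46 and 253 CPM, and Rrm2, the inducible subunit of ribonucleotide reductase, at 3.22, 6.06 and 224 CPM. In the lower range the medians of DNA synthesis, nucleotide supply and chromatin were 0.45, 0.37 and 0.38, close to that of the spindle list.

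**Figure D3:**
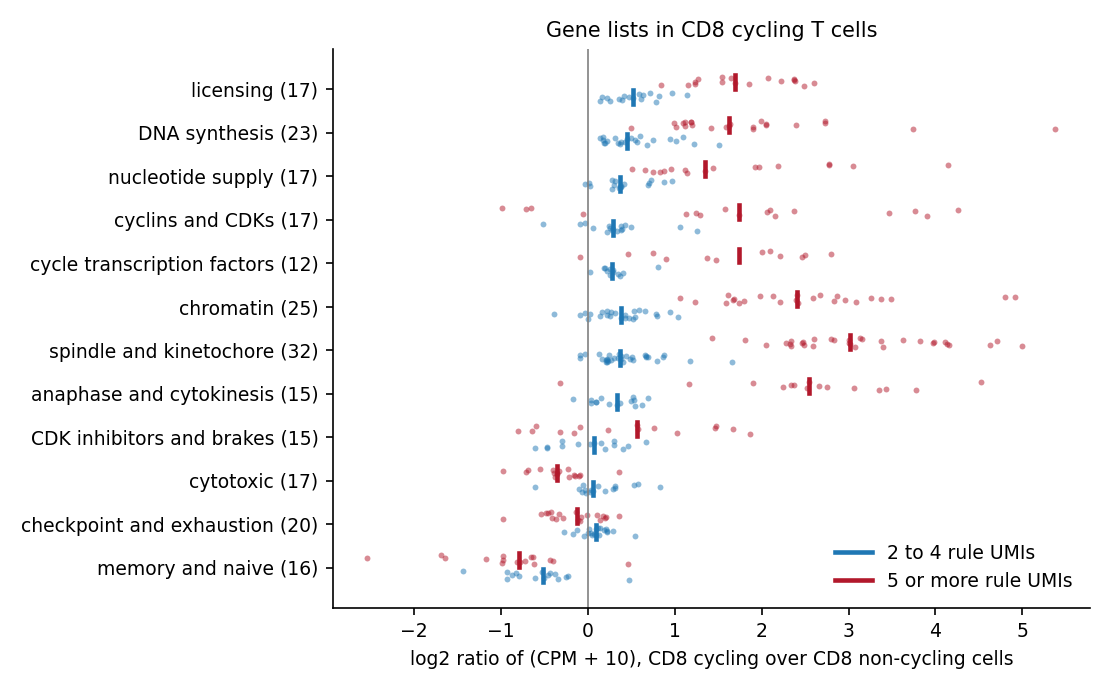
log2 ratios of (CPM + 10) of CD8 cycling over CD8 non-cycling cells, all libraries together (x axis), for the genes of 12 lists (y axis, number of genes tested in brackets). Points are genes and bars list medians, in blue for members with 2 to 4 rule UMIs and in red for 5 or more. The spindle list moves from a median of 0.37 to 3.02, while the memory list lies below 0 in both ranges.

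The promoters of these genes are shown because members of the division lists moved together, and such genes are known to be read through E2F sites, CHR elements and CCAAT boxes. The sequences are the 120 bases before the RefSeq transcription start (GRCm38.p6), 5′ to 3′ on the gene's strand, for 2 helicase genes (Mcm3, Mcm5), both rule genes, the mitotic kinase gene Cdk1 and the anaphase activator gene Cdc20. Capitals mark matches on either strand to the CCAAT box, to the CHR word TTTGAA or its variant with the letters TTCGAA, and to an E2F word. The first E2F word searched was TTCCCGC, the next had the letters TTGGCGC and the last was TTTCGCG. The reverse of CCAAT can overlap TTGGCGC.
Mcm3 (chr1:20820313-20820432, minus strand): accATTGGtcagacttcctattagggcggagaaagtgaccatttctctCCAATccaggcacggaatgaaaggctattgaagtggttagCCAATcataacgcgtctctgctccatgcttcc
Mcm5 (chr8:75109389-75109508, plus strand): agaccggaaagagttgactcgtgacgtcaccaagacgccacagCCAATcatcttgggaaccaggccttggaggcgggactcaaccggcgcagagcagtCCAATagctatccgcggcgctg
Mki67 (chr7:135716380-135716499, minus strand): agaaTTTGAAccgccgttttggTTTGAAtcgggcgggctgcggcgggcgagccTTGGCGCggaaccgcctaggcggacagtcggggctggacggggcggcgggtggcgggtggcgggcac
Top2a (chr11:99024190-99024309, minus strand): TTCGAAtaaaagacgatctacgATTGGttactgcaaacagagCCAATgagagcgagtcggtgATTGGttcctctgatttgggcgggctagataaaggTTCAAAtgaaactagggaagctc
Cdk1 (chr10:69352913-69353032, minus strand): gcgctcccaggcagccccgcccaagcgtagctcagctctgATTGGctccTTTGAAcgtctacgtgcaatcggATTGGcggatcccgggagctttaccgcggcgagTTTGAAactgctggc
Cdc20 (chr4:118437344-118437463, minus strand): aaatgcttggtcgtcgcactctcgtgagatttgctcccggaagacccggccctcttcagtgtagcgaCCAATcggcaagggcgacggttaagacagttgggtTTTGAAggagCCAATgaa
Both helicase promoters held CCAAT boxes (3 in Mcm3, 2 in Mcm5) and neither held a CHR word in this window. Top2a held 3 CCAAT boxes and 2 CHR words, Cdk1 2 and 2, Cdc20 2 and 1, and Mki67 no CCAAT box, 2 CHR words and 1 E2F word. Over the 250 bases before the start, CCAAT was found in 34.5% of 27025 promoters, in 10 of 12 licensing genes with a promoter in the table, in 18 of 27 spindle genes and in 3 of 17 cytotoxic genes. A CHR word was found in 17.4% of all promoters, in 8 of 27 spindle genes (29.6%), in 4 of 12 licensing genes (33.3%) and in 4 of 17 cytotoxic genes (23.5%), and an E2F word in 6.32% of all promoters, 6 of 12 licensing genes and 1 of 27 spindle genes. A match describes these letters only and shows no binding.

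Phase was described with 2 lists without the rule genes, 43 genes of S phase and 52 of G2/M. The S-phase genes took 26.5, 27.9, 36.4 and 31.5 of 10000 UMIs in the members of the untreated, STING agonist, LTbR agonist and combination libraries, and the G2/M genes 49.5, 51.5, 56.8 and 54.3. In non-cycling T cells they took 9.47 to 9.83 and 13.6 to 15.2. The S-phase share of these UMIs was 34.9% (34.1 to 35.8%), 35.2% (34.1 to 36.2%), 39.1% (38.4 to 39.8%) and 36.7% (35.9 to 37.5%), highest after LTbR agonist. With the rule-meeting cells above 5000 genes included, the shares were 35.1%, 33.1%, 35.5% and 36.0%, highest after the combination. Among members with 5 or more rule UMIs the shares were 32.4%, 30.1%, 36.8% and 34.7%. The intervals of the S-phase share count UMIs as independent, although the UMIs came from 90 to 182 members a library. As a mean over cells the share was 39.8%, 40.8%, 41.3% and 38.9%, lowest after the combination. Both lists rose together across cells, with a Spearman correlation of 0.65 over 583 members that share depth and library. The cells with the highest S-phase shares (at or above 53.2%, 146 cells) had 195 CPM of Mcm5, 263 CPM of the sliding clamp Pcna and 51.1 CPM of E2f1, against 55.4, 111 and 4.78 CPM in the 146 cells with the lowest shares. The latter had 82.0 CPM of the mitotic cyclin Ccnb1 and 485 CPM of the centromeric histone Cenpa, against 7.13 and 57.6 CPM. Since Mcm5, Pcna, Ccnb1 and Cenpa are themselves cycle genes, these values describe the split and support nothing beyond it.

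**Figure D4:**
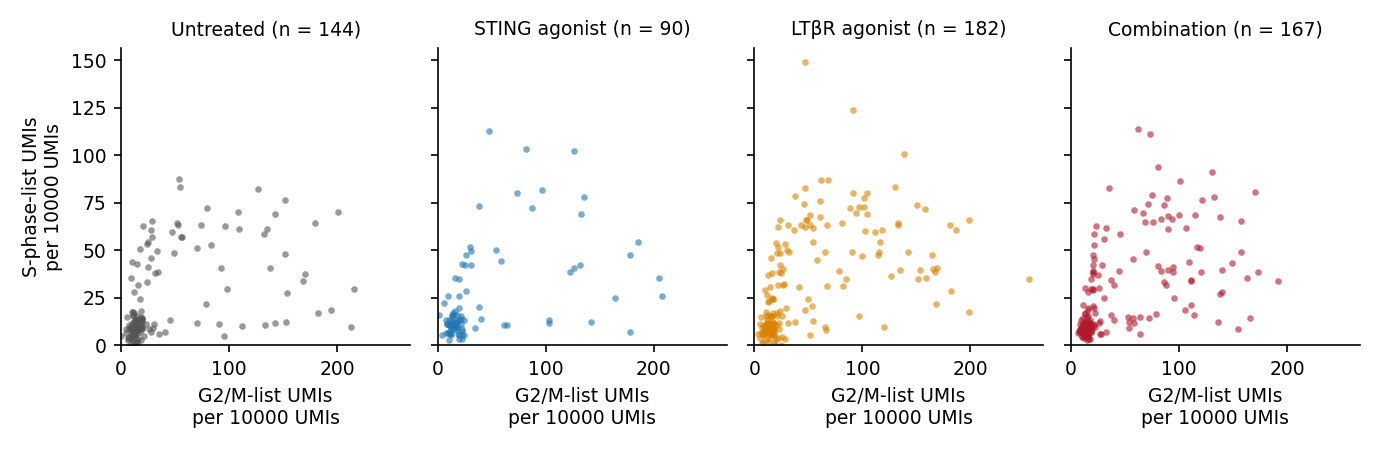
UMIs of the S-phase list (y axis) and of the G2/M list (x axis) per 10000 UMIs in each cycling T cell, 1 panel per library. Each library holds a dense group of cells low on both axes, a limb that rises along the S-phase axis and cells spread along the G2/M axis.

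Effector genes were read by the same measure. Of 17 cytotoxic, 17 cytokine and 20 checkpoint genes tested, 0 were 1.5 times higher and 0 were 1.5 times lower in all 4 libraries. Over all genes tested these shares were 3.09% and 0.141%, so counts of 0 in lists this short cannot be told from the background. With 1 library a group no count at an unadjusted p exists. The median log2 ratio of the cytotoxic list was 0.06 in CD8 members with 2 to 4 rule UMIs and -0.35 in those with 5 or more, and that of the cytokines and chemokines -0.09 and -0.52. Prf1, the pore-forming perforin, stood at 1287, 1161, 658 and 743 CPM in the CD8 members of the untreated, STING agonist, LTbR agonist and combination libraries and at 1215, 1021, 595 and 787 CPM in the non-cycling CD8 cells, in the same order of the libraries. The inhibitory receptor gene Pdcd1 stood at 455, 564, 401 and 497 CPM in members and 465, 579, 342 and 473 CPM in non-cycling cells. The list of memory and naive genes lay lower in members, with a median log2 ratio of -0.64, and 3 of its 16 genes were 1.5 times lower in all 4 libraries. Tcf7, the factor TCF-1 of stem-like T cells, stood at 26.4, 16.3, 20.2 and 17.1 CPM in members and 45.7, 72.2, 104 and 97.8 CPM in non-cycling cells. S1pr1, the receptor by which T cells leave tissue, and the quiescence-associated factor Klf3 were the other 2. In the interferon list Slfn5 and in the NK receptor list Cd7 were lower in all 4 libraries.

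Members of the STING agonist library were set against those of the untreated library. Genes with at least 50 UMIs in 1 of the libraries compared were tested, and past the fold means a ratio of (CPM + 10) of at least 1.5 times. Of 4961 genes, 2.52% were higher and 1.71% lower, 4.23% in either direction. No gene of the licensing, DNA synthesis, nucleotide, cyclin, spindle, anaphase or chromatin lists was past the fold, out of 9, 18, 11, 9, 24, 12 and 22 tested, and their medians lay between -0.03 and 0.14 against 0.05 over all genes. Of 10 brakes, 3 were higher. Btg2, an antiproliferative gene, stood at 239 CPM untreated and 438 CPM after STING agonist, and Klf2, a quiescence factor, at 36.2 and 104 CPM. The third was Cdkn1b, the CDK inhibitor p27, at 78.7 and 129 CPM. In the members with 5 or more rule UMIs the log2 ratios were 0.51, 1.33 and 0.69.

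Of 12 cytokine and chemokine genes 4 were lower after STING agonist (Ccl3, Ccl4, Ccl5 and Xcl1) and 4 higher (Tnfsf11, Il17a, Areg and Spp1), with a median log2 ratio of 0.19 and of 0.69 among members with 5 or more rule UMIs. Ccl5, which attracts T cells and myeloid cells, stood at 4048 CPM in the untreated members, 1849 CPM after STING agonist, 4345 CPM after LTbR agonist and 2605 CPM after the combination, a log2 ratio of -1.13 for STING agonist (-1.23 to -1.03). Ccl3 and Ccl4, inflammatory chemokines of activated T cells, had log2 ratios of -1.23 and -1.01, and 64.3% of the Ccl3 UMIs after STING agonist lay in 3 cells. Of 15 genes of costimulation and activation 4 were higher (Tnfrsf4, Nfkbia, Fos and Jun) and of 15 cytokine receptor genes 3 (Il2ra, Il2rg and Il18r1), with 0 lower in both lists. Il2ra, the high-affinity chain of the interleukin-2 receptor, stood at 98.9 CPM untreated and 206 CPM after STING agonist, with 48.1% of the latter UMIs in 3 cells. Of 11 heat shock and stress genes 3 were higher (Hspa1b, Dnajb1 and Atf3), and the immediate early gene Fos (71.7 and 364 CPM, log2 ratio 2.2) had the largest ratio among genes found in at least 5% of members of either library. However, 57.3% of the Fos UMIs and 86.2% of the Hspa1b UMIs after STING agonist lay in 3 cells, and Fos was found in 34.0% of untreated and 38.9% of STING agonist members. Of 15 cytotoxic genes 3 were higher (Gzmd, Gzme and Gzmf) and 2 lower (Gzma and Gzmk), but 75.3% to 88.8% of the UMIs of the 3 higher ones lay in 3 cells after STING agonist, and these near-identical paralogs can share reads. Gzma, a trypsin-like granzyme, had 81.7% of its 1040 untreated UMIs in 3 cells.

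After LTbR agonist, some genes of DNA replication were higher in the members and some cytotoxic genes lower. Of 5616 genes, 2.1% were higher than in untreated members and 1.55% lower, 3.65% in either direction. Of 39 tested genes of the S-phase list, 8 were higher (Tyms, Gins2, Prim1, Uhrf1, Hells, Ccne2, Tipin and E2f8) and 0 lower, with a median log2 ratio of 0.44 against 0.04 over all genes. Of 40 genes of the G2/M list, 1 was higher and 1 lower, with a median of 0.14. Mcm3, a helicase subunit, stood at 95.1 CPM untreated, 124 CPM after STING agonist, 151 CPM after LTbR agonist and 146 CPM after the combination, a log2 ratio of 0.62 (0.24 to 0.99) for LTbR agonist. Pclaf stood at 219, 176, 358 and 247 CPM, and Lig1 at 91.3, 68.9, 152 and 139 CPM. Ccnb2, a mitotic cyclin, went the other way with 89.4, 66.9, 55.9 and 67.1 CPM. The list count depended on the scale: 15 S-phase genes were higher with a total free of mitochondrial, ribosomal and V(D)J genes, and 0 with 50 CPM added in place of 10. Members with 10 or more rule UMIs were 30.2% after LTbR agonist and 20.8% in the untreated library, and within the members with 5 or more the S-phase median was 0.30. The part of that difference in the list medians was not tested.

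Of 14 cytotoxic genes 6 were lower after LTbR agonist (Gzma, Gzmd, Gzmf, Prf1, Serpinb9 and Serpinb6b) and 0 higher, with a median log2 ratio of -0.41. Among CD8 members alone, 71.4% of members after LTbR agonist and 80.6% untreated, 6 of 14 were lower and the median was -0.21. Among members with 5 or more rule UMIs, 3 of 13 were lower. Prf1 stood at 1140, 947, 545 and 576 CPM over all members of the untreated, STING agonist, LTbR agonist and combination libraries, a log2 ratio of -1.05 (-1.21 to -0.90) for LTbR agonist and of -0.94 within the members with 5 or more rule UMIs. Both libraries with LTbR agonist lay below both without it for this gene, and the share of all genes with such an order was not counted. The order was not particular to members, since Prf1 stood at 799, 597, 330 and 506 CPM in the non-cycling T cells. The ratio of Prf1 rested on many cells, with 14.0% and 11.3% of its UMIs in 3 cells in the untreated and LTbR agonist libraries, whereas 86.7% of the untreated UMIs of Gzmf lay in 3 cells. Gzmb, the most abundant granzyme, stayed within the fold at 1577, 1351, 1233 and 1470 CPM. Of the memory genes, Lef1, a factor related to TCF-1, stood at 28.5, 49.9, 64.1 and 48.0 CPM. The 6 highest ratios among genes found in at least 5% of members were those of Ccl6, Cd14, Ccl1, Fdps, Cyp51 and Insig1. Fdps, which makes farnesyl diphosphate, stood at 22.2, 46.9, 72.9 and 22.9 CPM, Cyp51, a sterol demethylase, at 19.0, 39.9, 61.4 and 23.5 CPM, and Insig1, a sterol-regulated brake on cholesterol synthesis, at 9.51, 25.9, 36.7 and 7.64 CPM. The values of these 3 genes were higher under either agonist alone than in the untreated and combination libraries. They were named for their high ratios to untreated, so the low untreated values follow in part from the choice. The share of all genes with such an order was not counted. Ccl6, Cd14 and Ccl1 had 78.2% to 88.5% of their LTbR agonist UMIs in 3 cells.

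The combination was compared with untreated and with each agonist alone, and the comparisons share libraries. Of 5524 genes, 1.86% were higher than untreated and 3.11% lower, 4.98% in either direction. The higher genes were 37.5% of those past the fold, and 50.3% when CPM were taken on a total free of mitochondrial, ribosomal and V(D)J genes. Of 18 checkpoint genes 5 were lower (Lag3, Cd244a, Tox, Nr4a2 and Cd101) and 0 higher, with a median log2 ratio of -0.44 against -0.01 over all genes. Tox, a factor of the exhausted T cell state, stood at 598 CPM untreated, 440 CPM after STING agonist, 568 CPM after LTbR agonist and 248 CPM after the combination, a log2 ratio of -1.23 (-1.46 to -1.01) to untreated, -0.80 to STING agonist and -1.16 to LTbR agonist. Lag3, an inhibitory receptor, stood at 644, 553, 481 and 381 CPM, and the nuclear receptor gene Nr4a2 at 424, 351, 327 and 223 CPM. The combination value was the lowest of the 4 in all 3 genes. They were named because they were past the fold below untreated, so this follows in part from the choice. Pdcd1 (435, 498, 334 and 441 CPM) and the inhibitory receptor gene Havcr2 (270, 249, 213 and 250 CPM) stayed within the fold. In the CD8 members alone Tox stood at 643, 500, 694 and 266 CPM, and the non-cycling CD8 cells of the combination library stood at 279 CPM.

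Of 15 cytotoxic genes 5 were lower in the combination than untreated (Gzma, Gzmc, Gzmf, Prf1 and Serpinb6b) and 0 higher, with a median of -0.20. Compared with STING agonist, where 1.82% of 5338 genes were higher and 3.45% lower (5.26% in either direction), 8 of 15 were lower and 1 higher, and 7 of 18 checkpoint genes were lower and 1 higher. Compared with LTbR agonist, where 1.58% of 5754 genes were higher and 2.66% lower (4.24% in either direction), 3 cytotoxic genes were higher (Gzmd, Gzme and Gzmf) and 0 lower. These near-identical paralogs can share reads, and 64.4% of the Gzmf and 77.4% of the Gzmd UMIs in the combination lay in 3 cells. The log2 ratio of Gzmf to LTbR agonist was 2.35 over all members and 0.39 among those with 5 or more rule UMIs. Of 19 glycolysis and hypoxia genes 3 were higher than after LTbR agonist (Hk2, Aldoa and Bnip3). Aldoa, a glycolytic aldolase, stood at 1064, 1235, 737 and 1167 CPM. Of 14 nucleotide supply genes 3 were higher in the combination than untreated (Tyms, Shmt2 and Mthfd2), and of 9 cycle transcription factors 2 were higher (E2f7 and E2f8) and 1 lower (E2f3). Of the S-phase list 2 of 37 genes were higher and 1 lower, and of the G2/M list 0 of 41 were past the fold in either direction, with medians of 0.26 and 0.07 and of 0.09 and -0.13 among members with 5 or more rule UMIs. Cdkn1a, the CDK inhibitor p21, stood at 71.7, 107, 121 and 129 CPM and Klf2 at 36.2, 104, 78.4 and 124 CPM. The untreated value was the lowest in both, which were named because they were past the fold above untreated.

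The 6 highest ratios of the combination to untreated were those of Areg, Il1rl1, Pparg, Hlf, Asns and Ltb4r1. Il1rl1 encodes the interleukin-33 receptor ST2 and stood at 12.05, 6.99, 7.67 and 76.9 CPM. Areg, the epidermal growth factor receptor ligand amphiregulin, stood at 19.0, 88.8, 54.8 and 142 CPM, and Pparg, a lipid-sensing nuclear receptor, at 4.44, 2.99, 0 and 39.3 CPM. These UMIs lay in few cells. Il1rl1 was found in 4 of 144, 3 of 90, 5 of 182 and 15 of 167 members. Of the 15 cells in the combination, 13 had Cd4 UMIs, 13 had UMIs of Gata3, 11 of Areg, 11 of Pparg and 10 of Il13, and all 15 had a T cell receptor constant UMI. They held 70 of the 72 Pparg UMIs, 76 of the 81 Il13 UMIs, 196 of the 261 Areg UMIs and 87 of the 167 Gata3 UMIs of the members in that library, and 10 of them had 5 or more rule UMIs. Gata3 is the type 2 factor of T helper cells, and Il13 is a cytokine of such cells. These co-detections were counted after the leading genes had been seen. In the non-cycling T cells of the 4 libraries Il1rl1 stood at 15.6, 6.14, 33.8 and 47.9 CPM and Areg at 83.0, 91.1, 116 and 170 CPM. Il13 stood there at 3.21, 3.60, 90.9 and 37.4 CPM, highest after LTbR agonist, against 10.1, 2.99, 2.19 and 44.2 CPM in members. Asns, asparagine synthetase, stood at 5.71, 11.0, 12.6 and 37.6 CPM and was found in 18.6% of the combination members.

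**Figure D5:**
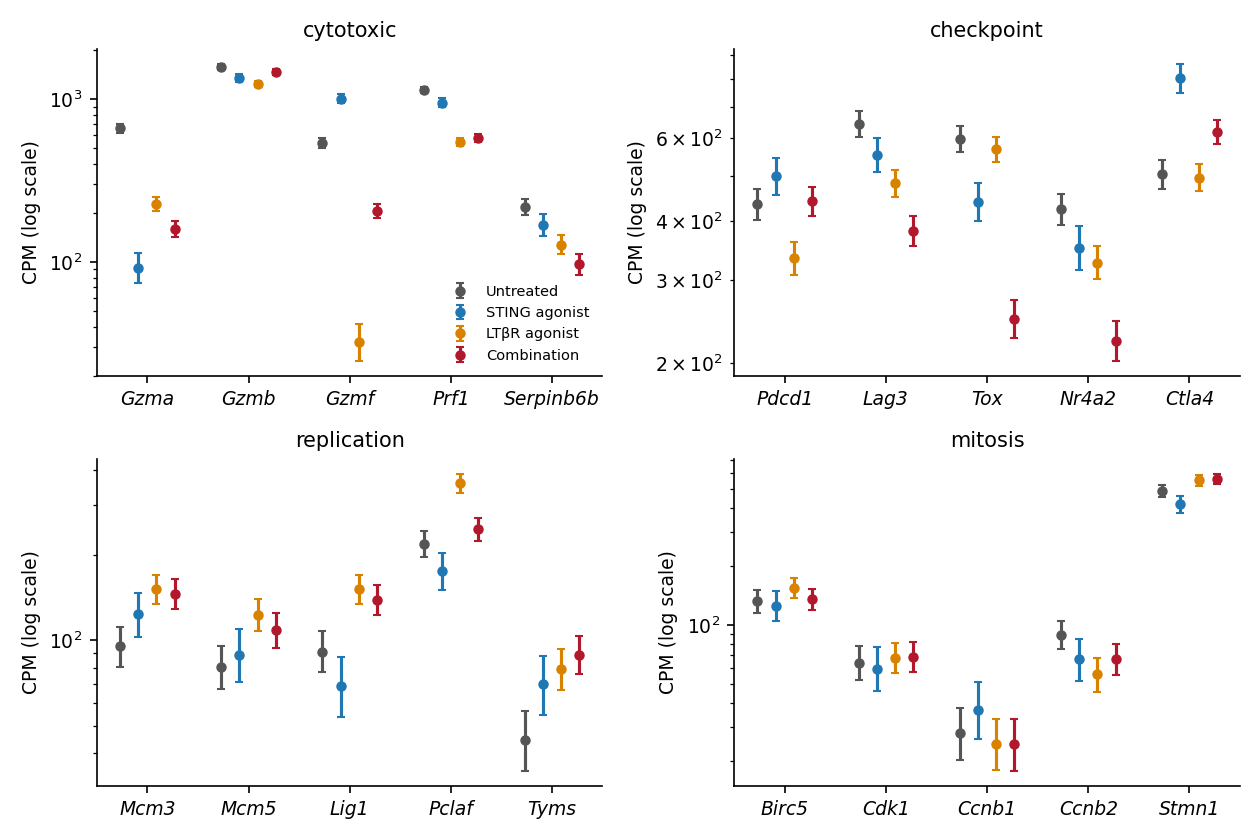
CPM (y axes, log scale) of 20 genes in the cycling T cells of the 4 libraries, with exact 95% Poisson intervals that cover counting error only. Prf1 is lowest in both libraries with LTbR agonist (545 and 576 CPM), Tox is lowest after the combination (248 CPM), Mcm3, Lig1 and Pclaf are highest after LTbR agonist, and Birc5 and Cdk1 lie close together in all 4 libraries. The share of all genes with such orders was not counted.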

How the data were processed

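The authors sorted live CD45-positive cells, made 10x Genomics 5-prime libraries and deposited raw UMI counts of 4 libraries in 1 matrix. The submitters' processing notes name Cell Ranger 7.1.0 and mm10. The number after the hyphen of each barcode assigns a cell to a library, per the labels. From the deposited counts, cells were filtered by the study's limits and gated by the rule above. Members and gene lists were chosen with earlier results of these data known. UMIs were summed per library and scaled to counts per 1000000 (CPM), ratios were taken of (CPM + 10) over genes with at least 50 UMIs in 1 library, and 1.5 times was the fold. V(D)J segments (633 genes) were left out of the gene counts. With 1 library a group no test was run. The ratio step was tested on simulated counts. Ratio intervals join opposite exact bounds. Genes were named where they belong to a list and had at least 50 UMIs in 1 library, or were among the 6 highest or 6 lowest ratios found in at least 5% of members. A few values outside this rule are said to be chosen after they were seen, and list members with fewer UMIs in every library are named only as part of a count. Doublets were kept, since no removal is stated in the sources used here, and cells with 2 or more markers of another class were removed as an alternative. Promoters came from RefSeq (GRCm38.p6), the first listed start of each gene. Python 3.11.15, NumPy 2.4.6, SciPy 1.17.1, pandas 2.3.3 and matplotlib 3.10.9 were used. Some items are not reported here.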

Additional observations from a re-analysis of the deposited data

Results flagged for a closer look

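Of 298 list genes tested in both comparisons, 3 were past 1.5 times in opposite directions when STING agonist was given alone and when it was added to LTbR agonist. The difference was not tested, since each group had 1 library. Over all genes tested, 4.23% were past the fold in the first comparison and 4.24% in the second. The share of all genes past it in opposite directions was not counted. Il18r1, a chain of the interleukin-18 receptor, had a log2 ratio of 0.71 for STING agonist over untreated and of -0.84 for the combination over LTbR agonist. Its levels were 132, 223, 147 and 77.5 CPM in the untreated, STING agonist, LTbR agonist and combination members. Nr4a1, an early gene of T cell receptor signalling, had log2 ratios of 0.83 and -0.86. Its levels were 71.7, 135, 127 and 65.5 CPM. Il17a had 0, 151, 67 and 4 UMIs, a log2 ratio of at least 3.75 against the limit that 0 counts allow (3 counts over the untreated library) and of -1.94 for the combination over LTbR agonist. Of these UMIs, 99.3% after STING agonist and 91.0% after LTbR agonist lay in 3 cells.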

How the results depend on the processing

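No paired analysis was possible because each group had 1 library. All ratios to untreated of the cycling share, of filtered cells and of T cells, stayed within their main intervals under the alternatives run. They ranged from 0.98 to 1.20 (STING agonist), 1.06 to 1.5 (LTbR agonist) and 1.23 to 1.63 (combination) of filtered cells, and from 0.78 to 0.95, 1.05 to 1.39 and 1.01 to 1.18 of T cells. The CD8 share of members moved with 5 or more rule UMIs to 86.8% (untreated), 86.7% (STING agonist) and 70.8% (combination). With cells thinned to 2000 UMIs and the rule applied to the thinned counts, it moved to 63.3% (STING agonist), 59.5% (LTbR agonist) and 66.7% (combination). The rule was then met by only 52 (untreated), 30 (STING agonist), 79 (LTbR agonist) and 66 (combination) cells. The thinned CD8 share given earlier kept the rule call from the unthinned counts. The S-phase share moved with 5 or more rule UMIs to 32.4%, 30.1%, 36.8% and 34.7% (untreated, STING agonist, LTbR agonist, combination), as a mean over cells to 39.8%, 40.8%, 41.3% and 38.9%, without the upper gene limit to 33.1% (STING agonist) and 35.5% (LTbR agonist), against 36.0% for the combination, and in CD8 members alone to 37.7% (combination). The genes past the fold numbered 210 (STING agonist), 205 (LTbR agonist) and 275 (combination). They were 336, 350 and 456 with a pseudocount of 1, 68, 43 and 82 with 50, 495, 364 and 478 with at least 20 UMIs, 101, 97 and 156 with at least 100, and 723, 445 and 593 with no filter. The mean of CPM per cell gave 327 for STING agonist. Of the combination genes 37.5% were higher in the main scaling and 50.3% with a total free of mitochondrial, ribosomal and V(D)J genes. With members of 5 or more rule UMIs, an alternative chosen after seeing the data, the counts were 215, 209 and 342, of which 57, 61 and 134 genes were shared with the main calls in the same direction, fewer cells being summed. Leaving out a replicate was not possible. Depth limits small shares, 30 to 75 members a library having 5 or more rule UMIs, and one library a group leaves library and treatment confounded.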
